A study of Mus musculus with 8 samples.

Results

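The genes described here are 9 secreted inhibitors of Wnt signalling, measured in mouse dorsal skin: Frzb, Sfrp1, Sfrp2, Sfrp4, Dkk1, Dkk2, Dkk3, Wif1 and Notum. They were taken by name from the array's annotation, as every probe set (a group of short probes for one transcript) with exactly 1 of these gene symbols. This gave 16 of 45037 probe sets and 9 of 18193 genes, and where a gene had several probe sets, the one of highest mean level stood for it. The group was chosen by the Frzb values of these same arrays, which had shown a diet difference, so that difference is given as a description, without a test.

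Wnt proteins are secreted, lipid-bearing signals that bind Frizzled receptors and the coreceptors Lrp5 and Lrp6, which stabilises beta-catenin (Ctnnb1) and activates target genes with TCF and LEF factors. Secreted inhibitors act before the receptor in several ways. Frzb and the Sfrp proteins carry a domain like that of the Frizzled receptors and bind Wnt proteins, Wif1 binds them with another domain, Dkk1 and Dkk2 bind the coreceptors, and Notum is an enzyme that removes the lipid. Dkk3 is related to the other Dkk proteins in sequence, with a less settled role. In skin, Wnt signalling drives formation of the hair follicle and its growth phase, and several of these inhibitors are made by dermal cells or by follicle cells.

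The hairless strain Hos:HR-1 was used, and the donors of the skin were females 9 weeks old at the start and 10 weeks old at sampling. Control mice ate AIN-93G, a purified rodent diet, and collagen mice ate AIN-93G that held, in each 100 g, 2.0 g of peptides from hydrolysed fish scale collagen. Both were fed for 1 week. The study describes 16 mice, 8 per diet and 4 per cage, and holds 4 arrays per diet, which the labels call biological replicates. The sources used here do not say which mice and cages gave the arrays.

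The deposited values ran from 6.56 to 14.46, a range read here as a log2 scale, and they hardly varied between arrays. The median probe set had a range over the 8 arrays of 7.36 millionths of a deposited unit, and the 95th percentile of this range was 464 millionths. No fold changes are printed, since nothing shows that differences of this size can be read as such. Differences below are collagen minus control in millionths of a deposited unit, with limma's standard error (SE, n = 4 arrays per diet), and as multiples of the within-diet standard deviation (SD). The array collagen 1 had a median of 8.192673 over all probe sets, and the other 7 arrays lay between 8.192866 and 8.192944. Skin markers were bright, with deposited levels of 14.19 for Krt14 and 14.39 for Krt10, keratins of the epidermis, and 14.21 for Col3a1, a collagen of the dermis.

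Promoters are shown for Frzb, which gave rise to the comparison, and for Dkk1, which alone among the members searched matched a TCF and LEF motif. RefSeq's promoter table (GRCm38.p6) held 5 of the 9 members, so Sfrp1, Sfrp4, Dkk3 and Notum were not searched. Each line gives the 250 bases before the annotated start, 5′ to 3′ on the gene's strand. Capitals mark matches to the letters searched on both strands, and 4 motifs were searched. For TCF and LEF factors the letters were ATCAAAG and, as its other form, TTCAAAG. For the TATA box they were TATAAA. The CCAAT motif was searched by those letters. For the GC box they were GGGCGG.
Frzb, chr2:80447397-80447646, - strand: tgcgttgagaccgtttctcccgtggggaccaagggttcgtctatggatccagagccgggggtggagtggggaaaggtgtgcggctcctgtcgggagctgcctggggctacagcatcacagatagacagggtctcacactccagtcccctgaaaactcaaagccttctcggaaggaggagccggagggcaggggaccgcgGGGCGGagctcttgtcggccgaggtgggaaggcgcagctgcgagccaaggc
Dkk1, chr19:30549497-30549746, - strand: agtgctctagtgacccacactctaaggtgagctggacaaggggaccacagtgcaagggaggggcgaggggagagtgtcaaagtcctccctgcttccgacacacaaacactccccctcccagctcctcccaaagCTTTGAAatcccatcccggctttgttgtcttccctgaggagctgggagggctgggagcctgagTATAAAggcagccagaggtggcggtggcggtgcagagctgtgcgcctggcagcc
The Frzb window held 1 GC box, 51 bases before the start. The Dkk1 window held TTCAAAG on its opposite strand, 117 bases before the start, and TATAAA 54 bases before it. Of 32851 promoter windows of this length, 7.48% held a TCF and LEF motif, 12.4% a TATA box, 33.8% CCAAT and 32.7% a GC box. No motif match is a measurement of binding.

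In order of deposited level, the members were Sfrp1 (10.10), Dkk2 (9.88), Dkk3 (9.39), Sfrp2 (9.13), Sfrp4 (8.90), Notum (8.62), Wif1 (8.45), Frzb (8.23) and Dkk1 (7.61). All but Dkk1 exceeded 8.193, the midpoint of the probe sets ranked by mean, which also counts the dimmer probe sets of a gene. Among genes, each by its main probe set, Notum lay at the 45.1st percentile, Wif1 at the 41.8th, Frzb at the 37.0th and Dkk1 at the 16.5th. The other members lay between the 50.6th (Sfrp4) and the 73.4th percentile (Sfrp1). The smallest gap between neighbours in this order was 0.165 (Notum and Wif1), and the largest range of any member over the 8 arrays was 0.0183 (Sfrp4), so no neighbours changed places between arrays. The order is one of probe set signals. Probes differ in brightness for the same amount of RNA, so it does not rank the transcripts.

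The members differed widely in their spread over arrays. Sfrp4 had a range of 18348 millionths, at the 99.6th percentile of all probe sets, followed by Sfrp2 (3027, 98.6th percentile), Wif1 (1250, 97.3rd percentile) and Frzb (502, 95.2nd percentile). Dkk2 ranged over 207 millionths, Sfrp1 over 39.5 and Dkk3 over 17.1. Notum (2.57 millionths, 24.9th percentile) and Dkk1 (0.948 millionths, 8.62nd percentile) lay below the median range. The sources used here do not say how the scale was made, so ranges are compared as deposited.

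**Figure D1:**
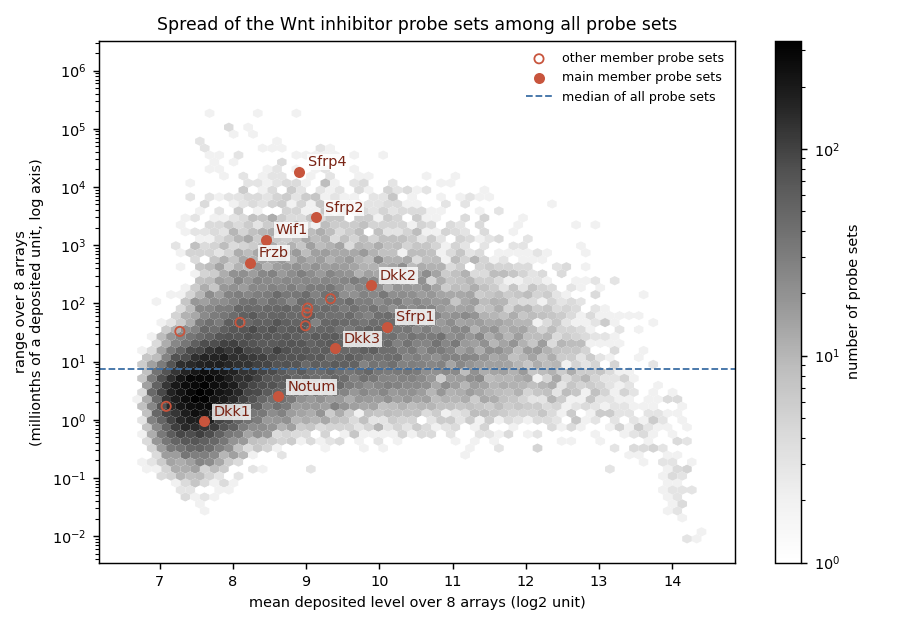
The range of each probe set over the 8 arrays (vertical, millionths of a deposited unit, log axis) is plotted against its mean deposited level (horizontal), with the number of probe sets in grey. Filled points are the main probe sets of the 9 members and open points their other probe sets, and 7 of the 9 filled points lie above the dashed median of 7.36 millionths.

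Frzb lay lower in all 4 collagen arrays than in any control array. Around the control mean, control 1, 2, 3 and 4 lay at 92.0, 55.6, 57.3 and -205 millionths, and collagen 1, 2, 3 and 4 at -366, -410, -226 and -397 millionths. Control 4 stood apart from the other control arrays and 20.7 millionths above collagen 3, the nearest collagen array. The difference was -349 ± 77.7 millionths, or -3.06 within-diet SD. These are the values for which Frzb was taken up. Among all genes, 0.671% were lower with collagen without overlap between the diets.

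A second, dimmer Frzb probe set (level 7.27) also lay lower with collagen in all 4 arrays. Control 1, 2, 3 and 4 lay at -3.53, -1.69, 11.3 and -6.06 millionths around their mean, and collagen 1, 2, 3 and 4 at -21.7, -14.1, -11.9 and -12.9 millionths. The gap between the diets was 5.85 millionths, and the difference was -15.1 ± 4.28 millionths, or -2.40 SD. Among all probe sets, 0.715% were lower with collagen without overlap. Both probe sets measure the same RNA samples under the same contrast, so the second is a description too. After subtraction of each diet's mean, these probe sets had a Pearson correlation of 0.42 and a Spearman correlation of 0.40 over the 8 arrays, and control 4 stood apart only in the brighter one.

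**Figure D2:**
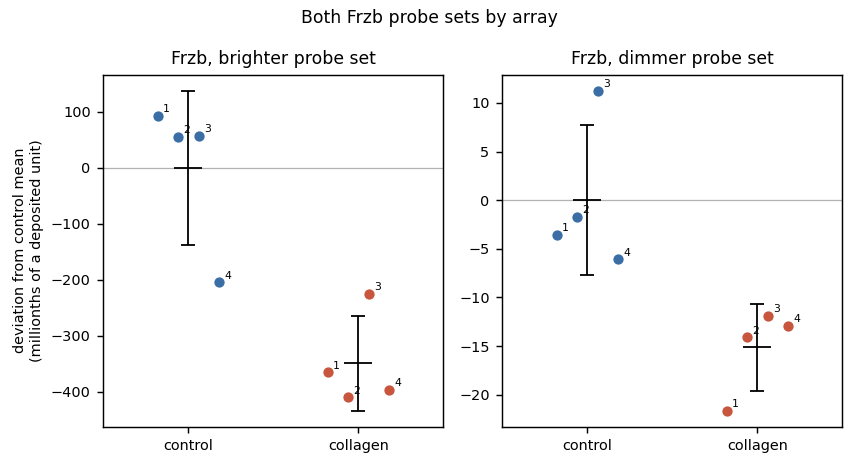
Both Frzb probe sets are plotted by array, as the deviation from the control mean in millionths of a deposited unit, with replicate numbers beside the points and the mean ± SD (n = 4) as bars. All collagen arrays lie below all control arrays in both, by 20.7 millionths in the brighter probe set and 5.85 millionths in the dimmer one.

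The separation of Frzb depended on leaving the values as deposited. When each array was centred on its median, the brighter probe set still differed by -294 millionths, but the diets overlapped, and the lowest control minus the highest collagen array was -66.6 millionths. After quantile normalization the difference was -213 millionths, again with overlap. The dimmer probe set differed by 40.0 millionths, in the opposite direction, after median centring, and had the same value in every array after quantile normalization. Median centring took the median difference of all genes from 0.0525 to 55.2 millionths. It raised collagen 1, the array of lowest median, the most. Centring adds the same amount to all genes of an array, so a negative difference smaller than this shift in the median turns positive. The part of this shift in the overlap of Frzb after centring was not tested. Without control 4 the difference of the brighter probe set was -418 millionths, and leaving out each other array gave -391 to -319 millionths.

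Of the other Wnt-binding inhibitors of the Frzb family, Sfrp2 and Sfrp4 had a lower mean with collagen under every scaling tried, while the sign of Sfrp1 depended on the scaling. The diets overlapped in all 3. Sfrp2, a product of dermal fibroblasts, lay at 697, -259, -1383 and 945 millionths around the mean in control 1 to 4 and at -113, -967, -2083 and -1304 millionths in collagen 1 to 4. Control 3 lay below 3 of the 4 collagen arrays. The difference was -1117 ± 642 millionths, or -1.18 SD.

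Sfrp4 lay at 1164, 518, 6171 and -7853 millionths in control 1 to 4 and at -12177, -3351, -3902 and 2891 millionths in collagen 1 to 4. Control 4 and collagen 1 were the lowest arrays, and collagen 4 lay above 3 of the control arrays. Its difference of -4135 ± 4081 millionths was the largest of the family on the deposited scale, and was -0.69 SD. Single arrays moved it by over 1.5 times. It was -1454 millionths without collagen 1, beside -1451 millionths for Sfrp2 in the same setting, -2078 without control 3, -6753 without control 4 and -6477 without collagen 4.

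Sfrp1 was the brightest member and had 5 probe sets. Its main probe set lay at -13.9, 8.44, -8.12 and 13.6 millionths in control 1 to 4 and at 1.08, -25.9, -6.17 and 5.07 millionths in collagen 1 to 4, and the diets overlapped across most of their range. The difference was -6.49 ± 9.14 millionths, or -0.48 SD. It was 48.7 millionths after median centring and -317 millionths after quantile normalization, so neither its sign nor its size was stable, and without collagen 2 it was -0.00667 millionths. Its other 4 probe sets differed by between -11.9 and 14.9 millionths, each within 0.51 SD of 0, 2 of them higher and 2 lower. After subtraction of diet means, Pearson correlations between pairs of Sfrp1 probe sets ran from 0.05 to 0.82.

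Wif1, which binds Wnt proteins through its own WIF domain, had nearly equal diet means and a wide spread. It lay at 109.8, 537, -265 and -382 millionths in control 1 to 4 and at -713, 215, 362 and 95.9 millionths in collagen 1 to 4. The lowest array was collagen 1, while the other collagen arrays lay above the control mean. The difference was -10.1 ± 305 millionths, or -0.02 SD. Its sign turned after both rescalings (45.1 millionths after median centring and 14.5 after quantile normalization), and leaving out 1 array gave -137 (control 4) to 224 millionths (collagen 1).

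Among the coreceptor inhibitors, Dkk2 lay at -16.1, -97.2, 59.5 and 53.7 millionths in control 1 to 4 and at -91.6, 6.83, 110.2 and 52.0 millionths in collagen 1 to 4. The highest array and one of the lowest were both from collagen mice. The difference was 19.4 ± 54.1 millionths, or 0.24 SD, and its sign turned without control 2 (-13.0 millionths) or collagen 3 (-10.9 millionths).

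Dkk1, an inhibitor of hair growth that is itself induced by Wnt signalling in many tissues, was the dimmest member. Its main probe set lay at 0.464, -0.205, 0.0493 and -0.309 millionths in control 1 to 4 and at 0.639, 0.430, -0.0158 and 0.599 millionths in collagen 1 to 4. Collagen 1, collagen 4 and control 1 lay highest, and the diets overlapped. The difference was 0.413 ± 0.308 millionths, or 1.28 SD, and a second Dkk1 probe set (level 7.09) differed by -0.576 ± 0.397 millionths, the other way. The sign turned after quantile normalization (-5.92 millionths) and with both probe sets averaged (-0.0811 millionths).

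Dkk3 lay at 9.22, -7.90, -1.82 and 0.494 millionths in control 1 to 4 and at -2.06, 5.38, 1.96 and 7.02 millionths in collagen 1 to 4. The highest and the lowest array were both controls. The difference was 3.07 ± 3.93 millionths, or 0.53 SD, while its second probe set differed by -7.91 ± 8.48 millionths. The sign turned after quantile normalization (-86.3 millionths) and with both probe sets averaged (-2.42 millionths). The difference was 0.442 millionths without control 2 and 6.15 millionths without control 1.

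Notum, the Wnt lipid-removing enzyme and itself a Wnt target, lay at -0.301, -0.341, -0.617 and 1.26 millionths in control 1 to 4 and at 1.07, -0.508, -0.646 and 1.92 millionths in collagen 1 to 4. Each diet had some arrays above 1 millionth and some below 0, and control 4 stood apart from the other controls. The difference was 0.459 ± 0.757 millionths, or 0.43 SD. It was -0.0282 millionths without collagen 4 and 0.878 millionths without control 4.

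**Figure D3:**
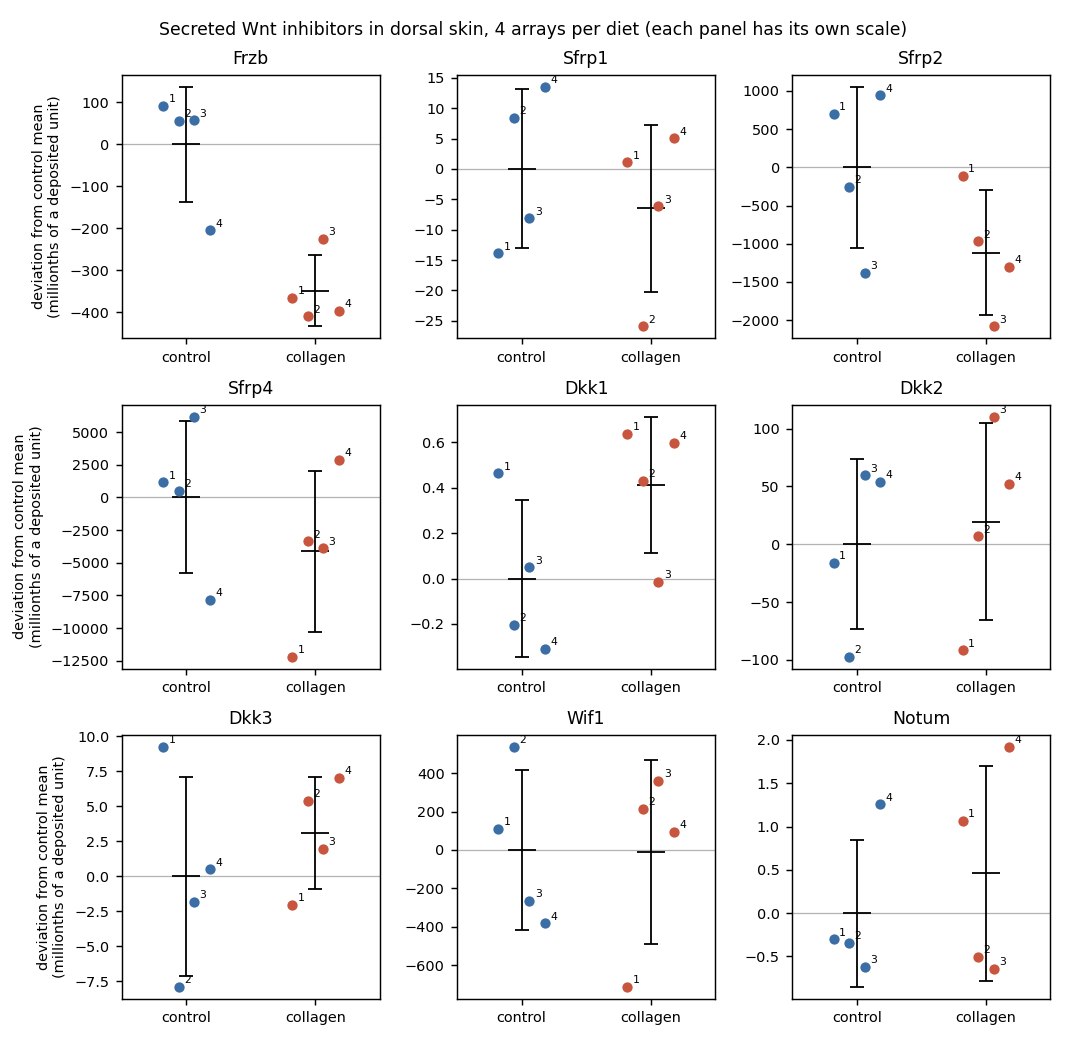
The 9 members are plotted by array as the deviation from the control mean (vertical, millionths of a deposited unit, each panel with its own scale), with replicate numbers beside the points and the mean ± SD (n = 4) as bars. Frzb is the 1 panel of the 9 in which the diets do not overlap, and the panels run from about 1 millionth (Dkk1) to 18348 millionths (Sfrp4) in range.

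No gene passed the test across all genes. With limma's moderated test and Benjamini-Hochberg adjustment over 18193 genes, 0 genes (0% of those tested) had an adjusted p under 0.05, and 635 (3.49%) had an unadjusted p under 0.05, of which 224 (1.23% of genes) were lower with collagen. The count of 635 was 1552 without collagen 4 and 1113 without control 1, and 446 to 728 without each other array. Of the 8 members other than Frzb, 4 lay higher and 4 lower with collagen, each had an adjusted p of 0.999, and the smallest unadjusted p was 0.129 (Sfrp2). Of all 9 members, 5 were lower as deposited, 3 after median centring and 6 after quantile normalization. Of all genes, 47.1% were lower as deposited, 5.38% after median centring and 35.2% after quantile normalization. The median difference of the members was -0.02 SD, against 0.05 SD for all genes.

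Markers of other cell types moved between the arrays as well, some lists lower and some higher with collagen. Of all genes, 47.1% were lower as deposited, 5.38% after median centring and 35.2% after quantile normalization. Epidermal markers were higher in 8 of 10 genes (median 0.495 SD), with 2 lower as deposited, 0 after median centring and 3 after quantile normalization. Melanocyte markers were higher in 6 of 8 (median 0.47 SD), with 2 lower as deposited, 1 after median centring and 2 after quantile normalization. The 2 melanocyte markers lower as deposited were Gpnmb (-6.24 SD, the largest difference in this list) and Kit (-0.03 SD). Of 24 skeletal muscle markers, 23 were lower with collagen (22 after median centring and 18 after quantile normalization), and their score, the mean z value over the list, ran from -0.70 to 1.21 in control arrays and from -1.45 to 0.31 in collagen arrays. Of 13 dermal fibroblast markers, 12 were lower (4 and 6 after these scalings), with scores from -0.08 to 0.57 in control arrays and from -1.38 to 0.61 in collagen arrays. All 8 endothelial markers were lower (2 and 4 after these scalings), with the most negative median of the lists, -0.93 SD, and scores from -0.255 to 0.79 in control arrays and from -1.35 to 0.46 in collagen arrays. Their deposited levels ran from 7.60 to 9.55. The muscle markers lay between deposited levels of 8.63 and 13.99 and the fibroblast markers between 9.54 and 14.21. The Frzb difference was -391 millionths in a fit that held the muscle score, and with the difference between the 3' and 5' control probe sets of Gapdh, a measure of RNA integrity, it was -379 millionths. These fits use the Frzb values for which the group was chosen, so they are descriptions, and no fit held the fibroblast score. The part of the markers in the Frzb difference was not tested. In whole skin, fewer cells of a type and less RNA per cell cannot be told apart.

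Within diets, no pair of members had a correlation that passed the exact permutation test after adjustment. Correlations were computed after subtraction of each diet's mean, over 8 arrays, with exact two-sided permutation of the arrays within diets (576 pairings) and adjustment over all 36 pairs. The strongest were Sfrp1 with Notum (Pearson's r = 0.74, exact p = 0.0503; Spearman's rho = 0.69, exact p = 0.0747), Sfrp2 with Sfrp4 (r = -0.73, exact p = 0.0625; rho = -0.52, exact p = 0.233) and Frzb with Notum (r = -0.68, exact p = 0.0747; rho = -0.52, exact p = 0.248). All 36 pairs had an adjusted exact p between 0.828 and 0.918 for Pearson's r and between 0.877 and 0.986 for Spearman's rho.

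Of these relations, 1 kept its size without the 2 arrays farthest from the median of the gene named first. Without control 4 and collagen 3, the arrays farthest from the Frzb median, r of Frzb with Notum was 0.38, so its sign turned. Without control 3 and collagen 1, r of Sfrp2 with Sfrp4 was -0.24. The relation of Sfrp1 with Notum was 0.78 without control 1 and collagen 2. After median centring, r of Frzb with Notum was 0.56. Centring adds the same amount to all genes of an array, and it raised collagen 1, the array of lowest median, the most. Notum ranged over 2.57 millionths, far below the median difference of all genes after centring, 55.2 millionths. The r of 0.56 therefore holds this shared shift and cannot show the relation of the 2 genes. Frzb with the other 7 members had r between -0.55 (Sfrp2) and 0.46 (Wif1 and Sfrp4), with adjusted exact p from 0.545 to 0.918 over the 8 pairs.

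**Figure D4:**
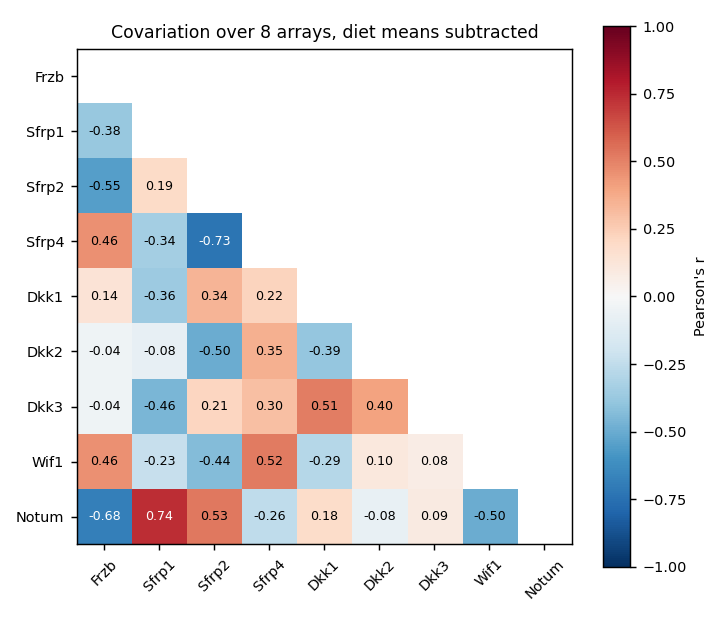
Pearson's r between members over 8 arrays is shown for each of the 36 pairs after subtraction of diet means, in blue below 0 and red above 0. The largest values are 0.74 (Sfrp1 with Notum) and -0.73 (Sfrp2 with Sfrp4), and no pair passes after adjustment.

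The members were also set against the muscle score, the fibroblast score and the Gapdh difference, 27 relations in all, in the same way. The strongest was Dkk1 with the muscle score, with r = -0.84 (exact p = 0.0191) and rho = -0.88 (exact p = 0.0208), and an adjusted exact p of 0.516 and 0.562. Without control 1 and collagen 1 it was -0.68. Dkk1 with the Gapdh difference had r = 0.75 (exact p = 0.0503) and rho = 0.69 (exact p = 0.0885), with an adjusted exact p of 0.680 and 0.859. The main Dkk1 probe set moved by less than 1 millionth over the arrays. After subtraction of diet means it had r = -0.06 and rho = 0.12 with the second Dkk1 probe set. For Frzb, r was -0.37 with the muscle score, 0.38 with the fibroblast score and 0.31 with the Gapdh difference, each with an adjusted exact p of 0.822. Without control 1 and collagen 1, r of Frzb was -0.41 with the muscle score and 0.63 with the Gapdh difference. Without collagen 2 and collagen 4 it was 0.86 with the fibroblast score. The same removal gave 0.996 for Sfrp4, -0.96 for Notum, -0.91 for Sfrp2 and -0.68 for Sfrp1. The remaining members lay between -0.04 (Dkk1) and 0.54 (Wif1). Large values of both signs after this removal are therefore not particular to Frzb.

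Genes whose pattern over the 8 arrays was most like that of Frzb were ranked by Pearson's r among 11594 genes at or above the median level. They were Zfp945 (r = 0.96), Ccdc157 (0.93), H2-Ob (0.93), Col8a2 (0.91) and Sertad2 (0.91). After subtraction of diet means, r was 0.97 for Zfp945 and 0.91 for Sertad2, and 0.76, 0.74 and 0.76 for Ccdc157, H2-Ob and Col8a2. Diet differences within this set ran from -1493 ± 395 millionths (H2-Ob) to -2.73 ± 1.26 millionths (Sertad2). The nearest member was Sfrp4, with r = 0.53 and rank 889 of the 11594 genes. These genes were chosen for their likeness, so the values are a description.

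The rest of the Wnt pathway was followed in 7 lists, with 100 measured genes that are not members. Of these, 54 were lower and 46 higher with collagen as deposited, and 0 passed the adjusted test. At an unadjusted p under 0.05 there was 1 gene, Sp5, and in 2 genes the diets did not overlap (Sp5 and Ctnnb1), a share close to the 2.02% of all genes. Both were named after their values were seen. Sp5, a transcription factor and direct target of beta-catenin, differed by -3.20 ± 0.575 millionths, or -4.09 SD, at a level of 8.06. That is below 8.193, the median level used to choose the named pathway genes. After median centring, 0 of the 18 target genes were lower, Sp5 included. Ctnnb1 itself differed by 0.150 ± 0.221 millionths at a level of 13.57. The median difference of the 100 genes was -0.05 SD.

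By role, the Wnt ligands were lower with collagen in 10 of 19 genes as deposited, 0 after median centring and 3 after quantile normalization. Among all genes, 5.38% were lower after median centring, so low counts after it are not particular to these lists. Wnt4 and Wnt5a, made in skin by epidermal and dermal cells, differed by 10.6 ± 11.6 and 6.47 ± 5.02 millionths. Secretion genes were lower in 3 of 6 (0 and 2 after these scalings). Porcn, which adds the lipid to Wnt proteins, differed by -37.1 ± 21.2 millionths and Vps35, part of the retromer complex that recycles the Wnt carrier Wls, by 1.48 ± 0.681 millionths.

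Receptors and coreceptors were lower in 11 of 16 genes as deposited, 0 after median centring and 7 after quantile normalization. Fzd3, a Frizzled receptor, differed by 9.87 ± 4.98 millionths and Ror2, a receptor of Wnt5a, by -2.20 ± 1.5 millionths. R-spondins, their Lgr receptors and the ubiquitin ligases Rnf43 and Znrf3, which set the amount of receptor at the cell surface, were lower in 2 of 9 (0 and 4 after these scalings). Lgr4 differed by 22.5 ± 10.1 millionths and Rspo1 by 9.04 ± 13.2 millionths.

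Intracellular genes were lower in 9 of 19 (0 and 8 after these scalings), with the corepressors Tle1 and Tle3 at 5.98 ± 3.27 and 4.75 ± 2.76 millionths. Target genes were lower in 12 of 18 (0 and 8 after these scalings), a list that includes Notum. Axin2, a target that feeds back on the pathway, differed by -3.30 ± 2.55 millionths and Cd44 by 35.3 ± 23.2 millionths. Other antagonists were lower in 8 of 15 (3 and 2 after these scalings). Sostdc1, a secreted antagonist that acts in follicle and tooth development, differed by 8.06 ± 3.55 millionths. Shisa2, which retains Frizzled receptors in the cell, differed by -162 ± 102.6 millionths. The smallest unadjusted p among these named genes was 0.0606 (Sostdc1), and each had an adjusted p of 0.999 by limma over all genes.

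**Figure D5:**
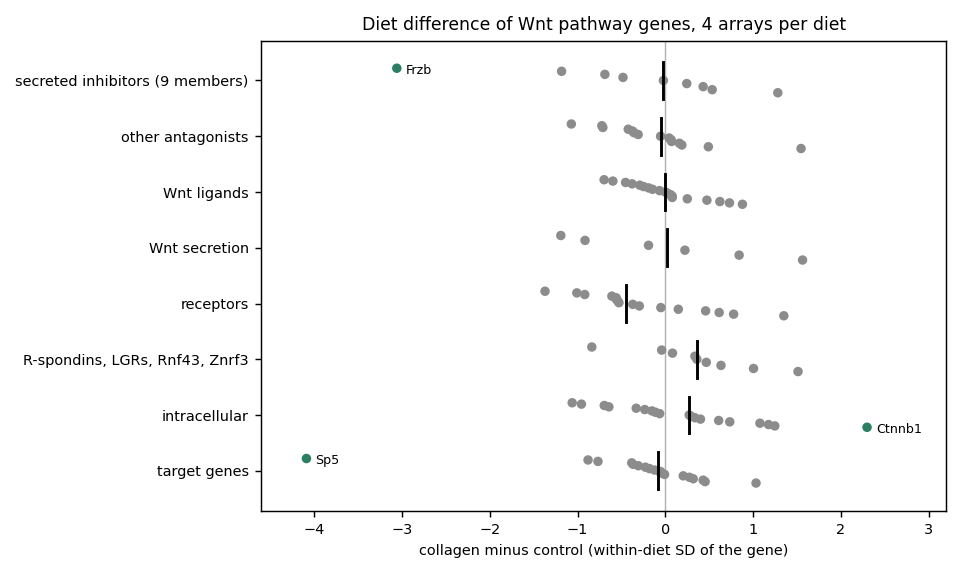
Each point is a gene of a Wnt pathway list, placed by its collagen minus control difference in units of its own within-diet SD (horizontal, 4 arrays per diet), and black bars mark list medians. Green points are genes whose diets do not overlap, namely Frzb at -3.06, Sp5 at -4.09 and Ctnnb1 at 2.30, and all list medians lie between -0.45 and 0.36.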

How the data were processed

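Biotin-labelled RNA was hybridised to 1-colour arrays, per the labels' protocols. The authors deposited log2 values, one column per array. The base was read from the range of the values. Per the submitters' processing notes R 2.7.2 was used. The sources used here give no summary method, normalization or build. Scanner files were not used here. The number of arrays limits the precision.

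No rescaling was applied. After 64 control probe sets were removed, 34945 had 1 gene symbol in the platform annotation, 932 several and 9160 none. The diets were compared by lmFit and eBayes of limma 3.58.1, run under R 4.3.3, as a two-sided test without covariates. Correlations used exact permutations. Scripts were tested on simulated data, and figures drawn with matplotlib 3.10.9. The replicate numbers of the labels were checked for pairing, which 4 numbers could not settle, and the main fit did not use them as a block. Nothing says how the biological replicates were taken, so p-values measure the spread between these arrays.

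The members and lists were chosen with earlier results of these data known. Named genes were the members, the 2 genes of smallest unadjusted p at or above the median level in each pathway list, and the 5 genes most like Frzb. Marker lists for dermal papilla (6 of 11 lower), epidermis (2 of 10), follicle stem cells (6 of 8), adipocytes (3 of 7), endothelium (8 of 8), macrophages (6 of 9), cartilage and bone (4 of 8) and melanocytes (2 of 8) were scored the same way. After median centring these counts were 4, 0, 1, 1, 2, 5, 0 and 1.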

Additional observations from a re-analysis of the deposited data

Results flagged for a closer look

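Among 32 groups of 4 arrays (16 probe sets, 2 diets), 3 had an array far from the others of its diet, by Dixon's test at its 95% critical value, where chance flags about 1 group in 20. Control 4 was the lowest control array in the brighter Frzb probe set, with a gap to the next array of 0.877 of the group's range. Control 4 was also the highest control array for Notum, with a gap of 0.831 of the range. Collagen 1 was the highest collagen array in 1 of the Sfrp1 probe sets, the one at a level of 9.02, with a gap of 0.835 of the range.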

How the results depend on the processing

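Whether replicate numbers shared by the diets pair the arrays was not settled, with 4 arrays per diet. The correlations of same-numbered arrays over all genes, after subtraction of diet means, were 0.362, 0.0486, 0.215 and 0.0111. Control 1 and control 3 correlated best with the collagen array of their own number, and control 2 and control 4 with another. With the replicate number as a block, 0 genes passed, 5 members were lower, the Frzb difference was -349 millionths and r of Frzb with Notum was -0.09. The count of genes past adjusted p was 0 in the other alternatives, except that 1 gene, Abcb6, passed with the muscle score as a covariate (difference 7.99 ± 0.293 millionths, adjusted p = 0.00817 by limma), named after its values were seen. At an unadjusted p under 0.05 by limma the alternatives gave from 72 (median centring) to 1552 (without collagen 4) of 18193 genes. There were 1470 genes under array weights and 1110 under the replicate block. Testing all probe sets gave 1601 of 45037, a count over a larger total. The count of lower members was 3 after median centring and 4 to 7 in the other alternatives. Frzb was lower in each of the 19 alternatives (-418 to -182 millionths, the last with its probe sets averaged), as were Sfrp2 (-1578 to -795) and Sfrp4 (-6753 to -1454). Many of these alternatives could not turn a sign. The eBayes trend and robust options, dim genes left out, the replicate block and all probe sets tested keep the same difference of means (-349 for Frzb). Leaving out 1 array cannot turn Frzb, since its diets do not overlap. Frzb was chosen for this difference, so its range is a description. Signs turned after quantile normalization for Dkk1 (-5.92 millionths), Dkk3 (-86.3) and Wif1 (14.5), after median centring for Sfrp1 (48.7) and Wif1 (45.1), and with probe sets averaged for Dkk1 (-0.0811) and Dkk3 (-2.42). Wif1 also turned with array weights (174), the Gapdh covariate (124) and the muscle covariate (153). With 1 array left out, differences ran from -137 to 224 for Wif1, from -13.0 to 56.4 for Dkk2 and from -0.0282 to 0.878 for Notum. The causes were not tested. For Frzb with Notum, r was 0.38 without the 2 arrays farthest from the Frzb median, and -0.90 to -0.47 with 1 array left out. After median centring it was 0.56, a value that holds the shift added to all genes of an array. Signal over background is unknown here, so how far the low levels of Dkk1 and the dimmer Frzb probe set lie above it is unknown too.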
